A study of Mus musculus with 4 samples.

Results

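The genes described here are the ligands and receptors of the 4 classical axon guidance systems of the mouse: ephrins with Eph receptors, semaphorins with plexins and neuropilins, slits with Robo receptors, and netrins with Dcc, neogenin and the Unc5 receptors. They were taken from the count tables by symbol, not by measured values, and come to 70 of 23420 genes. The choice of these families was made with earlier results of these data known. The ligands number 35, made up of 8 ephrins, 20 semaphorins, 3 slits and 4 netrins. The receptors also number 35, made up of 14 Eph receptors, 9 plexins, 2 neuropilins, 4 Robo receptors and 6 netrin receptors. The study sequenced RNA from wild type E14 cells, a mouse embryonic stem cell line grown without feeder cells on gelatin in serum medium with leukemia inhibitory factor. The control group held 2 libraries of cells at 0 h. The other group held 2 libraries of cells given all-trans retinoic acid (ATRA), a ligand of nuclear retinoic acid receptors, at 1 µM for 24 h. No label says whether the 0 h cells received the dimethyl sulfoxide vehicle or whether replicates were separate cultures, a treatment label writes the dose in mM where the titles write microM, and ATRA cannot be told apart from 24 h of further culture.

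Guidance molecules steer growing axons by attraction or repulsion at the growth cone, and the same proteins position cells and vessels in the early embryo. Ephrins stay attached to the cell that makes them and signal in both directions when they meet an Eph receptor tyrosine kinase on a neighbouring cell. Semaphorins act through plexins, and most secreted class 3 semaphorins need a neuropilin as co-receptor. Slits repel axons through Robo receptors at the midline, while netrin attracts through Dcc and repels through Unc5 receptors. Retinoic acid drives stem cells towards neural fates in culture, and it also patterns the embryonic hindbrain, where Eph receptors and ephrins help to separate neighbouring cell groups.

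Counts in genes came to between 11086233 and 31005634 per library, and the guidance genes took 0.209% and 0.190% of them in control replicates 1 and 2 and 0.135% and 0.102% in ATRA replicates 1 and 2. A count in every library was found for 64 of the 70. Levels are given as CPM (counts scaled to library size with TMM factors), where 3 counts, the limit that a count of 0 allows, equal 0.0940 to 0.309 CPM. The ATRA libraries differed from each other far more than the controls did, and over the guidance genes a chi-square of replicate against replicate, divided by its degrees of freedom, came to 44.7 for ATRA and 8.34 for control.

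Of the 70 genes, 60 had enough counts to be tested among 14256 genes (quasi-likelihood test of edgeR with 2 libraries a group, called where the Benjamini-Hochberg adjusted p was under 0.05). With the counts as deposited, 1 guidance gene rose, the slit gene Slit2, and 0 fell, where 0.723% of all tested genes were called higher and 0.407% lower. An unadjusted p under 0.05 was reached by 37 of the 60, 12 higher and 25 lower, or 61.7% against 41.7% of all genes. DESeq2's Wald test called 9 higher and 16 lower. Its calls over all genes, not split by direction here, came in number to 29.7% of the 14256. That test was run on all genes with a count, so some of its calls may lie outside the 14256. Between groups, the libraries did not overlap for 16 genes with ATRA above (26.7%, against 40% of all genes) and 32 with ATRA below (53.3%, against 41.5%). The median log2 fold change was −0.82, against −0.02 over all genes tested.

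Fold changes of the guidance genes moved with the base composition of their transcripts. The tested guidance genes had a median GC content of 56.3%, against 50.2% over all genes, and 41 of the 60 lay above that all-gene median. Among the 42 guidance genes with at least 50% GC, 5 had a fold change above 0, while among the 18 with less, 16 did. The same split separated the 2 ATRA replicates, although they had the same treatment: going from ATRA replicate 1 to replicate 2, levels differed by a median log2 ratio of −1.17 in the first set and 0.51 in the second. The matching medians for the controls were −0.28 and −0.01. Spearman's rho between fold change and GC content over the 60 genes was −0.69, and −0.75 over all genes tested, a description of genes that share their 4 libraries. A second fit therefore took out each library's trend with GC content, and it removes any such trend whether it came from the library or from the treatment.

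**Figure D1:**
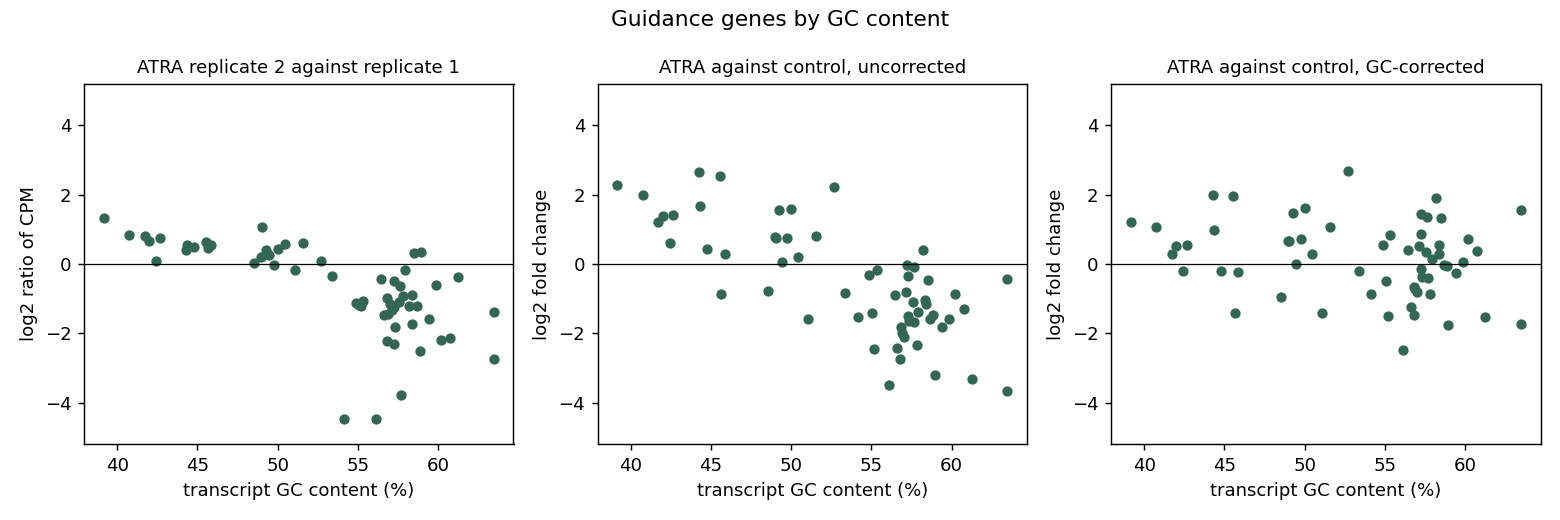
Each point is a tested guidance gene (60 in all), placed by transcript GC content (percent) on the horizontal axis. The vertical axes show the log2 ratio of CPM between the 2 ATRA replicates, the uncorrected log2 fold change and the GC-corrected log2 fold change. The slope in the first panel, between replicates of 1 group, recurs in the second (rho −0.69) and is weaker in the third (rho −0.20).

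After GC correction 11 guidance genes rose and 8 fell. These are 18.3% and 13.3% of the 60, where 8.56% of all tested genes were called higher and 7.7% lower. The genes that rose were Slit2, Sema3c, Sema3e, Sema4g, Sema6c, Efnb1, Ephb1, Plxnc1, Nrp1, Dcc and Neo1. Those that fell were Slit3, Ntn1, Sema4b, Sema6a, Epha1, Epha2, Epha4 and Nrp2. The median log2 fold change became 0.29, against 0.01 over all genes, and 20 of the 60 genes changed sign between the fits. Libraries did not overlap for 25 genes with ATRA above (41.7%, against 35.5% of all genes) and 21 with ATRA below (35%, against 34.8%). On both scales at the same time this held for 14 genes above (23.3%, against 23.9%) and 19 below (31.7%, against 24.4%). Without control replicate 1, and likewise without control replicate 2, 0 guidance genes passed after correction, and 35 and 29 of all genes did. The range of calls with 1 library left out is given in the closing section beside the range over all genes. Of the 19 genes, 16 had one direction in every fit that tested them, and the exceptions were Efnb1, Sema4g and Sema6c. This was 18 fits for 15 of the 16 and 17 for Ephb1. The fits reuse the same libraries and the 19 were picked by a fit among them, so this is a description. Some genes that did not pass, such as Plxna1 and Epha7, also kept their direction in every fit. Calls within a family, given below, are to be read beside the shares of all genes, 8.56% higher and 7.7% lower. In what follows "rose" and "fell" refer to the GC-corrected test unless the uncorrected test is named, fold changes are log2 of ATRA over control ± SE, and library values are ordered control replicates 1 and 2, then ATRA replicates 1 and 2.

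Summed over the family members, the receptors were lower with ATRA and the ligands were not, and the size of the first difference depended on the scale. As counted, the 35 receptors had 1459 and 1295 CPM in the controls and 755 and 525 CPM with ATRA, and on the corrected scale the 28 tested ones had 975 and 948 CPM against 796 and 789 CPM. The 35 ligands had 576, 522, 520 and 645 CPM as counted, and the 32 tested ones 505, 478, 521 and 575 CPM after correction. Eph receptors summed to 642, 576, 252 and 154 CPM as counted and stayed lower with ATRA after correction, at 422, 416, 267 and 249.7 CPM. Most of the corrected control sum lay in Epha1, Epha2 and Epha4, which fell. Of the 10 tested Eph receptors, 4 had corrected fold changes above 0, so the lower sum does not describe every member. Plexins had 457, 394, 236 and 109 CPM as counted but 264, 255, 257 and 242 CPM after correction, so that their difference was nearly absent on that scale. These sums are a description with no test, and 5 receptors rose and 4 fell after correction.

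Marker genes were counted on both scales, against the shares of all genes given above. All 8 markers of the ATRA response rose in both fits. Of 12 embryonic stem cell markers, 3 fell in the uncorrected test and 8 after correction, and 0 rose in either. Neural progenitor markers summed to 333, 278, 313 and 447 CPM as counted and to 213, 193, 332 and 935 CPM after correction. Nes and Zic2, which passed neither test, held 623 and 159 CPM of the last sum, against 226 and 30.6 CPM in ATRA replicate 1. As counted their ATRA replicates lay closer, at 214 and 295 CPM for Nes and 25.6 and 52.5 CPM for Zic2. Of the 8 progenitor markers tested, Sox1 rose in both fits, from 1.60 and 1.56 CPM to 23.8 and 30.7 CPM as counted. Pax6 and Sox3 rose after correction, with 1.36 and 1.81. Neuronal markers summed to 498, 525, 310 and 283 CPM as counted. Of the 11 tested, Dcx rose in both fits, from 0.282 and 0.445 CPM to 3.32 and 5.78 CPM as counted, Tubb3 fell in both, and Stmn2 fell after correction. Extraembryonic endoderm markers summed to 551, 484, 359 and 336 CPM as counted and to 397, 376, 371 and 514 CPM after correction, with Ttr at 0 in every library. Of the 9 tested, 4 rose and 1 fell after correction, namely Gata4, Gata6, Sox7 and Dab2 against Lama1, and 0 passed uncorrected edgeR, with 7 at an unadjusted p under 0.05. Fibroblast markers summed to 217, 156, 109.6 and 111 CPM as counted and to 125, 103, 118 and 218 CPM after correction. Of the 7 tested, Pdgfra and Dcn rose after correction, and 0 passed uncorrected edgeR, with 4 at an unadjusted p under 0.05. The part of such cells in the results was not tested, and in bulk RNA fewer cells of a type and less RNA per cell cannot be told apart.

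**Figure D2:**
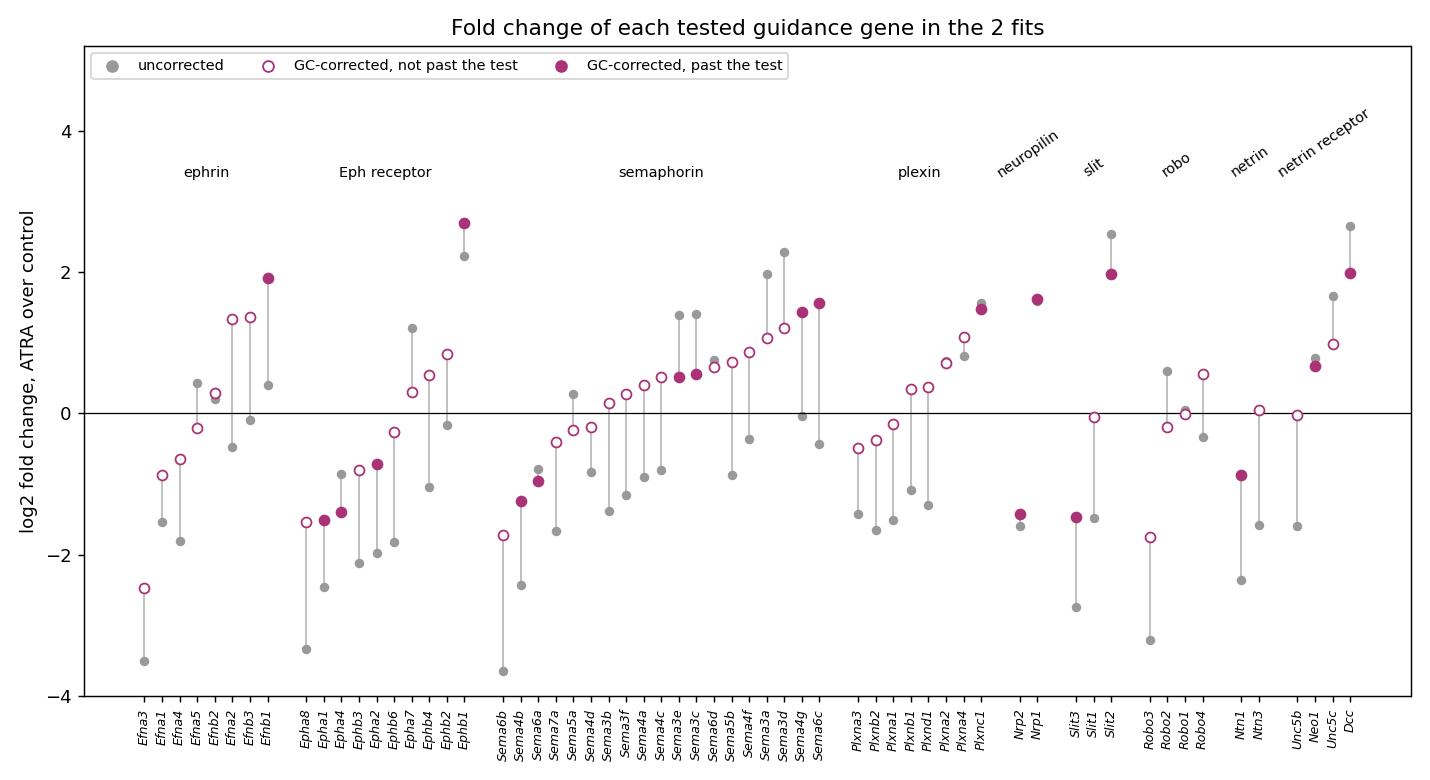
Log2 fold change (vertical axis, ATRA over control) of the 60 tested guidance genes, ordered within families, with the uncorrected value in grey joined by a line to the GC-corrected value, which is filled where the test was passed. Among Eph receptors and semaphorins the lines are long for many genes, while those of Nrp1, Nrp2, Neo1 and Plxnc1 are short.

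Measured per transcript length, the guidance genes of these stem cells were led by Eph receptors. The mean over the 4 libraries was 52.7 CPM per kilobase for Epha2, a receptor known from epithelia and early embryos, 23.6 for Epha1, the founding member of its family, and 23.3 for Sema3e. Plxna1 followed with 15.9, Efnb2 with 15.6 and Unc5b with 14.3. As counted, Epha2 led in the controls with 90.03 and 78.1 CPM per kilobase. Sema3e led in ATRA replicate 2 with 41.2 against 11.4 for Epha2, while in ATRA replicate 1 Epha2 had 31.1 and Sema3e 26.3. This change of order was absent after GC correction. The corrected values were 204, 196, 133 and 109.9 CPM for Epha2 and 123, 113, 172 and 164 CPM for Sema3e. Over transcripts of 3913 and 6861 bases, Epha2 then stayed above Sema3e in all 4 libraries. All values per kilobase given here are as counted. The most abundant members of the other families were Nrp2 with 9.80, Ntn1 with 6.38, Robo1 with 4.94 and Slit3 with 2.11 CPM per kilobase. The order of the slits differed between the groups, with Slit3 at 4.03 and 3.32 and Slit2 at 0.633 and 0.568 in the controls, and Slit3 at 0.717 and 0.355 and Slit2 at 2.73 and 4.27 with ATRA.

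**Figure D3:**
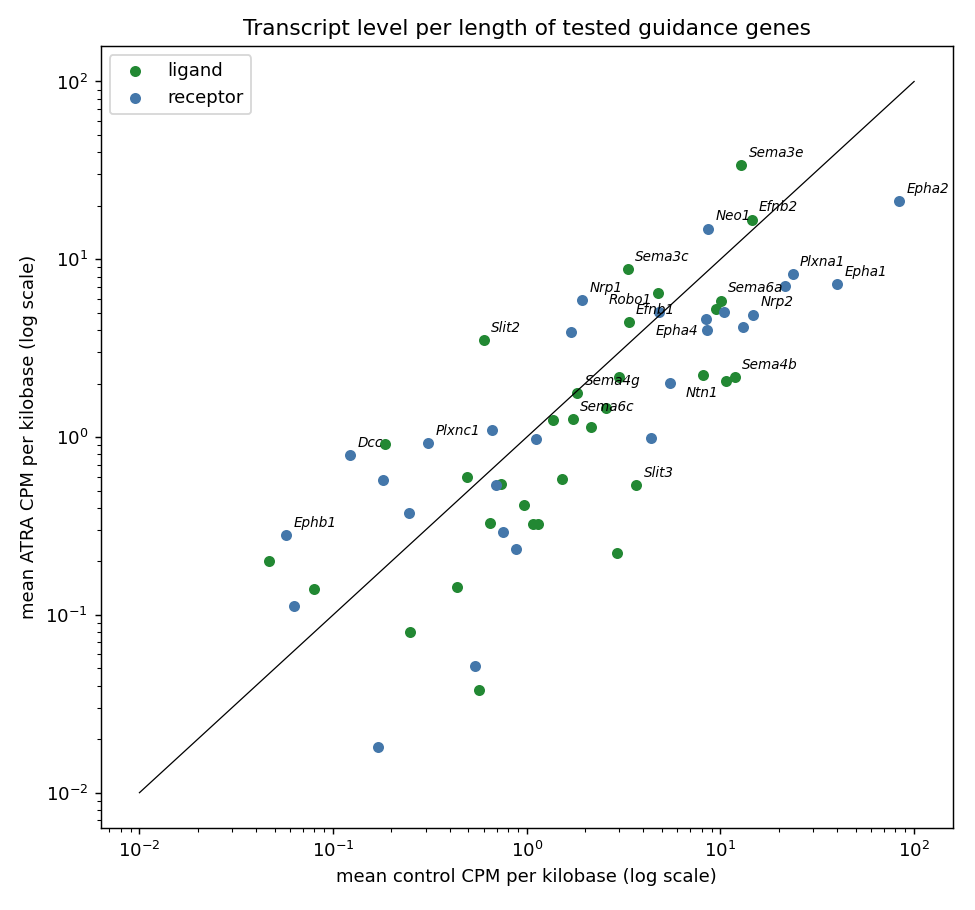
Mean level per transcript length of the 60 tested guidance genes in control (horizontal) and ATRA (vertical) libraries, in uncorrected CPM per kilobase on log axes, with ligands in green, receptors in blue and a line of equality. Epha2 is farthest to the right, Sema3e is the highest, and the named genes are the 19 that passed the GC-corrected test with Efnb2, Plxna1 and Robo1.

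Among ephrins, 1 of 8 tested members rose and 0 fell after correction. In the uncorrected test 2 of 8 had an unadjusted p under 0.05, against 41.7% of all genes. Efnb1, the X-linked transmembrane ephrin that sets up boundaries between cell groups, had 13.3, 8.60, 20.1 and 8.66 CPM. These groups overlap, and the uncorrected fold change was 0.40 ± 0.49 (edgeR, adjusted p = 0.535). Its transcript has 58.2% GC, and after correction the values were 7.03, 5.26, 22.8 and 23.7 CPM, a fold change of 1.91 ± 0.22 (adjusted p = 0.0132). The rise of Efnb1 therefore rests on the correction, and without ATRA replicate 1 the uncorrected value was −0.38. Efnb2, best known from arteries and the most abundant ephrin, had 70.8, 68.2, 64.2 and 95.9 CPM and a fold change of 0.20 ± 0.30 (edgeR, adjusted p = 0.613), with overlapping groups. Efna3, a glycolipid-anchored ephrin, had 271 and 118 counts in the controls against 15 and 0 with ATRA and did not pass. Its values of 8.49, 5.26, 1.06 and 0 CPM do not overlap, and its fold changes were −3.50 ± 0.83 (edgeR, adjusted p = 0.0672) and, corrected, −2.47 ± 0.67 (adjusted p = 0.0636). Efna1, Efna3 and Efna4 lie within 0.066 Mb of each other on chromosome 3, and all 3 had fold changes below 0 in both fits, Efna1 with −1.54 and −0.87 and Efna4 with −1.81 and −0.65. Efna2, Efna5 and Efnb3 each changed sign between the fits, Efnb3 from −0.10 to 1.36 (edgeR, adjusted p = 0.053 after correction).

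Semaphorins were divided by class. Of 19 tested members 4 rose and 2 fell, and Sema3g had too few counts to test. Class 3 semaphorins are the secreted ones. Sema3e, which binds plexin D1 without a neuropilin, had 91.7, 84.5, 180.1 and 283 CPM, with both ATRA libraries above both controls. Its fold change was 1.39 ± 0.32 (edgeR, adjusted p = 0.0662), and 0.51 ± 0.10 after correction (adjusted p = 0.0344). Sema3c, which guides neural crest cells into the heart, behaved alike in size, with 18.7, 17.7, 36.2 and 60.2 CPM and fold changes of 1.40 ± 0.35 (edgeR, adjusted p = 0.0693) and 0.55 ± 0.13 (adjusted p = 0.0484). In both genes the change was smaller after correction, at 1.43-fold for Sema3e and 1.47-fold for Sema3c.

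The class 3 genes form runs of neighbours in the genome. Sema3d, Sema3a, Sema3e and Sema3c lie within 5.35 Mb on chromosome 5 (12383385 to 17730268, GRCm38), have transcripts of 39.2% to 42.7% GC, and had fold changes above 0 in both fits, with ATRA above control in every library. Sema3d had 1.03, 1.29, 3.25 and 8.25 CPM and fold changes of 2.28 ± 0.56 and 1.21 ± 0.32 (edgeR, adjusted p = 0.0683 and 0.0589). Sema3a, the classical collapsing factor for growth cones, was rare, with 12, 4, 12 and 15 counts (0.376, 0.178, 0.848 and 1.55 CPM), and its corrected fold change was 1.06 ± 0.52 (edgeR, adjusted p = 0.195). Sema3a passed the expression filter only through its ATRA libraries, where it was higher. Sema3b and Sema3f, neighbours on chromosome 9 with 57.9% and 58.4% GC, had −1.38 and −1.15 before correction and 0.15 and 0.28 after it, so that the 2 runs differed in sign on the uncorrected scale only. These runs of neighbours were picked out after their values were seen, and base composition and position move together in them.

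Class 4 to 7 semaphorins are bound to the membrane. Sema4b fell, with 49.2, 44.6, 12.6 and 4.54 CPM and both ATRA libraries far below the controls. Its fold change was −2.43 ± 0.51 (edgeR, adjusted p = 0.0636), and −1.23 ± 0.17 after correction (adjusted p = 0.0181). Sema6a, a transmembrane ligand of plexins A2 and A4, fell as well, and here the libraries of a group lay close together, at 70.2 and 67.7 CPM against 39.7 and 40.3 CPM. Its fold change was −0.79 ± 0.26 (edgeR, adjusted p = 0.0886) and −0.96 ± 0.12 after correction (adjusted p = 0.0149), so that Sema6a is a member whose change did not shrink when GC content was taken out. Sema4g and Sema6c rose only on the corrected scale. Sema4g had 8.43, 8.15, 9.40 and 6.70 CPM as counted, with overlapping groups, and 4.76, 5.16, 10.4 and 17.0 CPM after correction, a fold change of 1.43 ± 0.29 (edgeR, adjusted p = 0.0376). Sema6c, with 63.5% GC, had 7.68, 6.28, 7.35 and 2.78 CPM as counted and 3.05, 3.50, 9.78 and 9.44 CPM after correction, where its fold change was 1.56 ± 0.23 (edgeR, adjusted p = 0.0199). Their uncorrected fold changes were −0.03 and −0.43, and both change direction with the correction. Sema6b, with 95, 28, 4 and 0 counts, had fold changes of −3.65 ± 0.96 (edgeR, adjusted p = 0.0705) and −1.72 ± 0.82 (adjusted p = 0.173). Sema4d, a ligand of plexin B1 with 44.0, 40.6, 26.6 and 20.7 CPM, had −0.84 and, corrected, −0.20, and did not pass. The other 7 tested semaphorins (Sema4a, Sema4c, Sema4f, Sema5a, Sema5b, Sema6d and Sema7a) ranged from −1.67 to 0.76 before correction and from −0.41 to 0.87 after it, and 0 of them passed in edgeR.

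Within the slit family, Slit2 rose in both fits and Slit3 fell after correction. Slit2 and Slit3 encode large secreted repellents that bind Robo receptors. Slit2 had 201 and 127 counts in the controls and 385 and 412 in the shallower ATRA libraries, which is 6.30, 5.66, 27.2 and 42.5 CPM, or 5.98 ± 0.455 against 34.9 ± 10.8 CPM (mean ± SD, n = 2 each). Every ATRA value exceeded every control value more than 4-fold. The uncorrected fold change was 2.54 ± 0.37 (edgeR, adjusted p = 0.0468), the single guidance gene past that test, and the corrected one 1.97 ± 0.18 (adjusted p = 0.00871), or 3.92-fold. The uncorrected call was lost without control replicate 1 (adjusted p = 0.140) and without control replicate 2 (edgeR, adjusted p = 0.0943). Slit3 went the other way, with 672, 390, 53 and 18 counts, or 21.1, 17.4, 3.75 and 1.86 CPM. Its fold change was −2.74 ± 0.44 (edgeR, adjusted p = 0.0548) and −1.47 ± 0.20 after correction (adjusted p = 0.0181), or 2.77-fold lower. Slit1 had 2.38, 2.58, 1.41 and 0.206 CPM and a corrected fold change of −0.05, and did not pass. Slit2 lies on chr5:47983138-48307733 and Slit3 on chr11:35121224-35708507 (GENCODE M21, GRCm38), both on the plus strand. Their promoters are shown because the pair moved apart, from 250 bases before to 50 bases after the start (RefSeq, GRCm38.p6), 5′ to 3′. Capitals would mark the hexamer AGGTCA, which receptors of the retinoic acid receptor group bind, or its reverse TGACCT, and neither window holds it.
Slit2, chr5:47982905-47983204, plus strand: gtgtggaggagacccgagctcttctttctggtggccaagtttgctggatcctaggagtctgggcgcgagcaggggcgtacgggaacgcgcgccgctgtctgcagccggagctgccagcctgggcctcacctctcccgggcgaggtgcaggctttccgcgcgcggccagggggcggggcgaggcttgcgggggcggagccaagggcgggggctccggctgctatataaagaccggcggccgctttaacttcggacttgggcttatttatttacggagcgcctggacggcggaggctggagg
Slit3, chr11:35121206-35121505, plus strand: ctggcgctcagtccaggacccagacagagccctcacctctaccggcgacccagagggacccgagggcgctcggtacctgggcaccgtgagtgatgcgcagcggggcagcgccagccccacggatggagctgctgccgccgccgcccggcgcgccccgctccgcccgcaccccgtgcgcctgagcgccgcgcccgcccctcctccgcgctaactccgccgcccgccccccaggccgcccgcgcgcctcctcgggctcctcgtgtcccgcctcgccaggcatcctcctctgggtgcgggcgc
The Slit2 window has 68.0% GC and the Slit3 window 78.3%, against a median of 52.7% over all 32851 RefSeq promoters and 64.3% over the 76 promoters found for 60 of the guidance genes. RefSeq's start of Slit3 differs from the gene start in GENCODE. Most of the Slit3 window lies inside the GENCODE gene, so it may not be the promoter used here.

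Of the netrins, secreted proteins related to laminin, 2 of 4 could be tested. Ntn1, the attractant made by the floor plate of the neural tube, had 63.6, 61.9, 16.0 and 8.35 CPM. The ATRA values lay well below the controls, with a fold change of −2.35 ± 0.39 (edgeR, adjusted p = 0.0578). After correction Ntn1 fell by less, with 34.4, 38.3, 18 and 22.2 CPM and a fold change of −0.87 ± 0.16 (adjusted p = 0.0317). Ntn3 had 1.22, 1.29, 0.495 and 0.309 CPM, and its fold change of −1.58 became 0.04 after correction. Ntn4 and Ntn5 had at most 19 counts in a library.

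Eph receptors held most of the receptor calls that were lower with ATRA. Of 10 tested members 3 fell and 1 rose, where 7.7% of all genes fell and 8.56% rose. Before correction 9 of 10 had an unadjusted p under 0.05, 7 of them lower, against 41.7% of all genes. After correction 4 of the 10 had fold changes above 0. Epha1 had 133, 129, 33.0 and 14.2 CPM, a fold change of −2.46 ± 0.44 (edgeR, adjusted p = 0.0578). After correction it had 89.3, 91.0, 34.5 and 28.7 CPM and −1.51 ± 0.13 (adjusted p = 0.00849), or 2.84-fold lower. Its exons share 236 bases with Zyx on the opposite strand, and the strand setting of the counting is not given in the sources used here. Epha2 had 352, 306, 122 and 44.7 CPM, with both ATRA libraries far below both controls. The fold change was −1.98 ± 0.50 (edgeR, adjusted p = 0.0691), and −0.72 ± 0.12 after correction (adjusted p = 0.0268), with 204, 196, 133 and 109.9 CPM. Epha4, a receptor for ephrins of both types that marks segments of the hindbrain, had 52.2, 53.9, 24.5 and 34 CPM and a fold change of −0.86 ± 0.30 (edgeR, adjusted p = 0.0956). Unlike Epha1 and Epha2, Epha4 has a transcript of low GC content (45.6%), and correction made its change larger, with 63.2, 64.1, 23.7 and 24.4 CPM and −1.40 ± 0.12 (adjusted p = 0.00834), or 2.64-fold lower.

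Ephb1 was the Eph receptor that rose. This gene, which directs retinal axons at the optic chiasm, was rare, with 10, 5, 18 and 13 counts (0.313, 0.223, 1.27 and 1.34 CPM). All 4 values are above the limit of 3 counts and the groups do not overlap. Ephb1 passed the expression filter only through its ATRA libraries, so the lack of overlap and the rank of its fold change are a description only. The fold change was 2.22 ± 0.50 (edgeR, adjusted p = 0.0652) and 2.69 ± 0.50 after correction (adjusted p = 0.0304), or 6.47-fold, the highest of the 60 on the corrected scale. An antisense transcript, Gm26846, shares 152 exon bases with Ephb1 and is not a row of the count tables, so its reads could count as Ephb1. Of the remaining Eph receptors, Epha8 had 102, 43, 4 and 2 counts and fold changes of −3.33 ± 0.61 (edgeR, adjusted p = 0.0579) and −1.54 ± 0.51 (adjusted p = 0.0853). Ephb3 had −2.12 and −0.80, Ephb6 −1.83 and −0.26, and Epha7, with low GC content, 1.21 and 0.30. Ephb2 and Ephb4 changed sign, to 0.85 and 0.55 after correction, and none of these 6 passed either test. Epha3, Epha5, Epha6 and Epha10 were too rare to test, with at most 15 counts in a library.

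**Figure D4:**
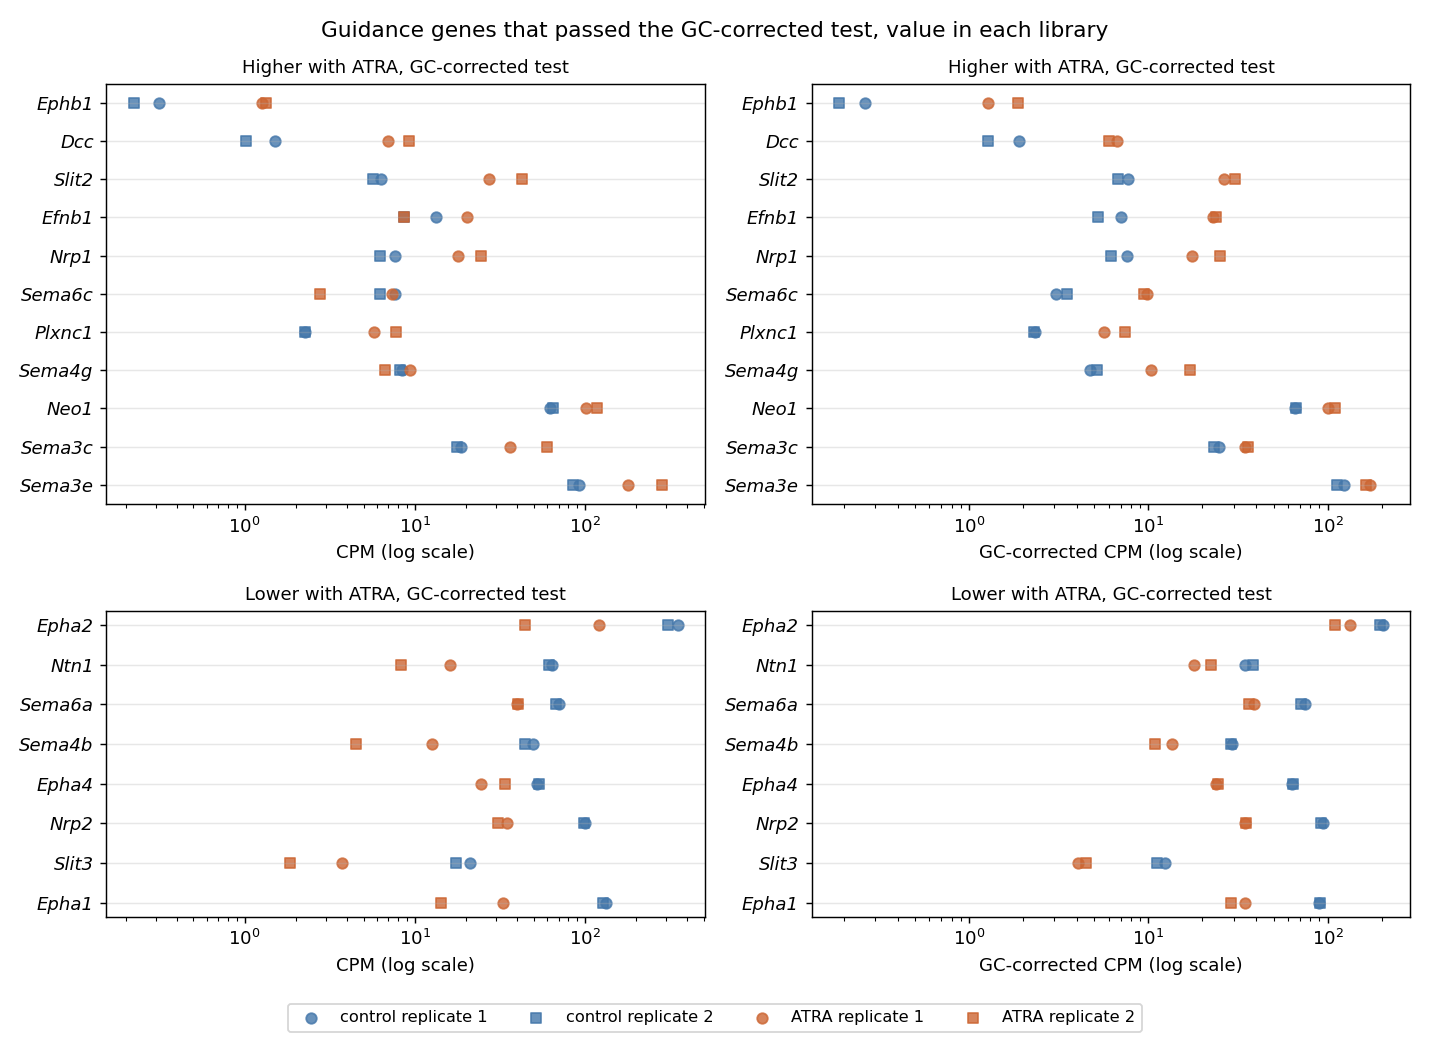
Levels in each of the 4 libraries (CPM on log axes, uncorrected on the left and GC-corrected on the right) of the 11 guidance genes that rose and the 8 that fell in the GC-corrected test, with controls in blue, ATRA in orange, replicate 1 as circles and replicate 2 as squares. On the left the groups overlap for Efnb1, Sema4g and Sema6c, and on the right for none of the 19.

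Plexins are the signalling receptors of semaphorins, and 1 of them passed. Plxnc1, the receptor of Sema7a, rose from 2.26 and 2.27 CPM to 5.80 and 7.74 CPM. Its fold change was 1.57 ± 0.37 (edgeR, adjusted p = 0.0664) and 1.48 ± 0.27 after correction (adjusted p = 0.0285), or 2.80-fold. Plxna1, the most abundant plexin and a partner of neuropilins, had 229.5, 196, 105 and 44.7 CPM as counted, with no overlap and a fold change of −1.51 ± 0.44 (edgeR, adjusted p = 0.0787). After correction the same gene had 129, 124, 115 and 114 CPM and −0.15 ± 0.09 (adjusted p = 0.299). Plxnb2 went from −1.65 to −0.38 and Plxna3 from −1.43 to −0.50, while Plxnb1 and Plxnd1, the receptor of Sema3e, changed sign, from −1.09 to 0.34 and from −1.30 to 0.38. Plxna2 and Plxna4 had fold changes above 0 in both fits, 0.73 and 0.71 for Plxna2 and 0.82 and 1.08 for Plxna4. Of the 8 tested plexins, 1 rose and 0 fell. Before correction 5 had an unadjusted p under 0.05, 4 of them lower, against 41.7% of all genes. Plxnb3 had at most 5 counts in a library and was not tested.

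The 2 neuropilins moved in opposite directions in every library and in both fits. Nrp1, co-receptor for Sema3a and for vascular endothelial growth factor, had 7.62, 6.28, 17.9 and 24.3 CPM. Its fold change was 1.60 ± 0.34 (edgeR, adjusted p = 0.0648), and 1.62 ± 0.25 after correction (adjusted p = 0.022), or 3.07-fold. Nrp2, the co-receptor preferred by Sema3f, had 99.5, 98.5, 34.8 and 30.6 CPM, with fold changes of −1.60 ± 0.27 (edgeR, adjusted p = 0.057) and −1.42 ± 0.11 (adjusted p = 0.00555), or 2.68-fold lower. Per kilobase of the longest coding transcript, Nrp2 stood at 14.8 and 14.7 CPM in the controls against 2.12 and 1.75 for Nrp1, and at 5.18 and 4.56 with ATRA against 4.97 and 6.77, so that the ATRA values of the 2 overlapped on this scale. This depends on the length used, since per kilobase of all exons the means over the libraries were 5.56 for Nrp2 and 1.43 for Nrp1, against 9.80 and 3.90 per transcript. Their transcripts have 50.01% and 51.1% GC, near the median of all genes, and the correction moved both fold changes by less than their uncorrected SE. Nrp1 lies on chr8:128358604-128503363 and Nrp2 on chr1:62703285-62818695 (GENCODE M21, GRCm38), both on the plus strand. Their promoters are shown as the other pair that moved apart, over the same window, with the hexamer or its reverse in capitals.
Nrp1, chr8:128358823-128359122, plus strand: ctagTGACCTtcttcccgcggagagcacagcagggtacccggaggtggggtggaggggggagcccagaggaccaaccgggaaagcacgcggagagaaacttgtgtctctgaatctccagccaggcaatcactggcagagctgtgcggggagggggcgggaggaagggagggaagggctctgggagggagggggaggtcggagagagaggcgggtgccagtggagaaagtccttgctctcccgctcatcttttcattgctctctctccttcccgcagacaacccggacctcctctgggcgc
Nrp2, chr1:62703067-62703366, plus strand: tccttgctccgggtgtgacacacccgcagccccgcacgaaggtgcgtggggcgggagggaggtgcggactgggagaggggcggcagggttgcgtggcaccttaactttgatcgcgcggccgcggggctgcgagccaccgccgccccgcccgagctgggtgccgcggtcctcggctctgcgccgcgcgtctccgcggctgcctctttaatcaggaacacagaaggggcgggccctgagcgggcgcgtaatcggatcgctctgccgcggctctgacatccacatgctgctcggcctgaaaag
The Nrp1 window holds TGACCT at 1 place, starting 246 bases before the start, and the Nrp2 window holds neither form. RefSeq's start of Nrp1 differs from the gene start in GENCODE, so this window may not be the promoter used here. On either strand the hexamer was in 16.3% of all RefSeq promoters of this length and in 14.5% of those of the guidance genes. Of 16 guidance genes that passed the corrected test and have a promoter in the table, 3 hold it, Nrp1, Epha2 and Sema4b. A match of these letters is not evidence of binding.

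Of the Robo receptors, 0 of 4 passed either edgeR test or the Wald test of DESeq2. Before correction 1 of 4 had an unadjusted p under 0.05, against 41.7% of all genes. Robo1, the most abundant of the 4, had 37.7, 35.6, 34.6 and 41.5 CPM, with overlapping groups and fold changes of 0.05 ± 0.28 (edgeR, adjusted p = 0.891) and −0.01 ± 0.15 (adjusted p = 0.982). Both fold changes of Robo1 were smaller than their SE, so a change was not resolved with 2 libraries a group. Which Robo receptor the slits act on in these cells was not tested. Robo3, which lets commissural axons cross the midline, had 31 and 15 counts in the controls and 1 and 1 with ATRA. Control exceeded ATRA 10.1-fold, with an exact 95% counting interval of 2.64 to 85.8 that covers counting error only, and the fitted values were −3.21 ± 0.71 (edgeR, adjusted p = 0.0613) and −1.75 ± 0.83 after correction (adjusted p = 0.169). Robo2 and Robo4 changed sign between the fits, from 0.60 to −0.19 and from −0.33 to 0.56.

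Of 4 tested netrin receptors, 2 rose and 0 fell. Dcc, the receptor for attraction to netrin, had 48, 23, 99 and 90 counts, or 1.5, 1.02, 7.0 and 9.28 CPM. The ATRA libraries lay above the controls, with fold changes of 2.66 ± 0.41 (edgeR, adjusted p = 0.0528) and 1.98 ± 0.30 after correction (adjusted p = 0.021), or 3.94-fold. Neo1, which encodes neogenin, a relative of Dcc that also binds repulsive guidance molecules, had 62.7, 64.8, 102 and 118 CPM, with 0.79 ± 0.26 (edgeR, adjusted p = 0.0875) and 0.66 ± 0.11 (adjusted p = 0.0254). Neo1 rose 1.58-fold on the corrected scale, a smaller change than that of Dcc in a gene with many more counts. Unc5b, a receptor for repulsion from netrin that is also found in vessels, had 142, 111, 58.3 and 25.0 CPM and a fold change of −1.60 ± 0.45 (edgeR, adjusted p = 0.0764). After correction it had 72.6, 66.8, 67.0 and 70.4 CPM, with overlapping groups and −0.02 ± 0.11 (adjusted p = 0.902). Unc5c had 1.66, 1.83, 4.52 and 6.60 CPM and fold changes of 1.66 ± 0.39 and 0.98 ± 0.25 (edgeR, adjusted p = 0.0664 and 0.0556). Unc5a and Unc5d had at most 11 counts in a library and were not tested.

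The corrected calls can be read by ligand and receptor. For netrin, Ntn1 fell while Dcc and Neo1 rose, and Ntn3, Unc5c and the most abundant netrin receptor, Unc5b, did not pass. For slits, Slit2 rose and Slit3 fell, and none of the Robo receptors passed these tests. For secreted semaphorins, Sema3c and Sema3e rose with Nrp1, and Nrp2 fell. Sema3a, Sema3b, Sema3d, Sema3f, Plxna1 and Plxnd1 did not pass. For the B-type ephrins, Efnb1 rose as did the B-class receptor Ephb1, while Efnb2, Efnb3, Ephb2, Ephb3, Ephb4 and Ephb6 did not pass. For the A-type ephrins, 0 of 5 passed in either edgeR test, with Efna1, Efna3 and Efna4 below 0 in both fits. Of the A-class receptors, Epha1, Epha2 and Epha4 fell, and Epha7 and Epha8 did not pass. Epha4 is a receptor for ephrins of both types. These are transcript levels in a bulk population, and whether partners are present on neighbouring cells was not tested.

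Other genes of the guidance pathway were counted from 2 lists chosen by function. Of 28 other cell-surface and secreted guidance genes, 23 were tested, and 0 passed the uncorrected edgeR test, with 9 (39.1%, against 41.7% of all genes) at an unadjusted p under 0.05. After correction 5 rose (21.7%, against 8.56% of all genes) and 1 fell (4.35%, against 7.7%). Rgma, a ligand of neogenin, had 3.13, 2.00, 6.71 and 2.48 CPM, with overlapping groups and an uncorrected fold change of 0.86 ± 0.55 (edgeR, adjusted p = 0.26). Its corrected value was 2.64 ± 0.27 (edgeR, adjusted p = 0.0109), a rise that rests on the correction, as does that of Islr2 (0.18 before and 1.87 after). The fall of its relative Rgmb was of like size on both scales, with −1.07 ± 0.31 (edgeR, adjusted p = 0.0778) and −1.34 ± 0.19 (adjusted p = 0.0189). The others that rose were Flrt3, which binds Unc5 receptors (2.27 before and 1.40 after), Cdon (1.33 and 1.17) and Met (1.57 and 0.98).

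Of 56 cytoplasmic effectors, 54 were tested, and 0 passed before correction, with 25 (46.3%, against 41.7% of all genes) at an unadjusted p under 0.05. After correction 14 rose (25.9%, against 8.56%) and 2 fell (3.70%, against 7.7%). Of the 14, Abl1 (−0.25 before and 1.01 after), Evl (−0.74 and 1.12) and Vav2 (−0.57 and 0.74) changed sign. Trio went from 0.11 to 0.76. The rises of these genes rest on the correction, and the rest of the 14 had fold changes above 0 in both fits. The kinase Pak1 had fold changes of 1.33 ± 0.27 and 0.99 ± 0.10 (edgeR, adjusted p = 0.0619 and 0.0104). Rock2 had 1.63 ± 0.36 and 0.69 ± 0.09 (edgeR, adjusted p = 0.0656 and 0.0172), and Rock1 also rose. Other kinases of the same kind did not pass in either fit, with corrected fold changes of 0.10 for Pak2, 0.55 for Pak3, −0.10 for Pak4, −0.15 for Limk1 and −0.08 for Limk2. Of the 2 that fell, Mical1, a partner of plexins, had −2.44 and −1.14, and the actin regulator Enah had −0.05 before correction and −0.77 after it, so that its fall rests on the correction. Without correction DESeq2's Wald test called 25 of the 77 tested genes of the 2 lists (32.5%). Its calls over all genes came in number to 29.7% of the genes that edgeR tested, and some may lie outside those. The median log2 fold changes were 0.09 for the surface and secreted genes and −0.26 for the effectors before correction and 0.08 and 0.16 after it, where those of all genes were −0.02 and 0.01.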

How the data were processed

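RNA of 4 libraries was analysed. The authors deposited raw read counts per gene symbol for each library. Per the submitters' processing notes, HTSeq 0.6.0, TopHat2 2.0.7, Cuffdiff 2.0.2, Cufflinks 2.0.2 and build mm10 were involved. Neither annotation nor strand setting is stated there. The 5 summary lines of a library, which held between 63.4% and 66.2% of reads in no gene and up to 0.254% ambiguous reads, were left out. The guidance genes, the lists and the tests were chosen with earlier results of these data known.

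The fit used edgeR 4.0.16 (R 4.3.3): default expression filter by group, TMM factors, robust quasi-likelihood fit with bias-adjusted dispersion, no covariate, Benjamini-Hochberg adjustment over 14256 genes. The filter asks for enough counts in at least 2 libraries, so rare genes could pass it through 1 group alone. Ephb1 and Sema3a passed through ATRA alone, and Sema6b, Epha8, Ntn3 and Robo3 through control alone. SE is the absolute log2 fold change over the square root of F. For GC correction, each library's log2 CPM deviation (prior count 2, genes with mean log2 CPM above 1) was fitted against the GC content of the longest coding transcript (GENCODE M21, GRCm38, with all 70 symbols matched) by a robust spline with 5 degrees of freedom (MASS 7.3.60.0.1), and entered as offsets. The biological coefficient of variation was 28.3% without and 15.4% with it. Library ratios used a pseudocount of 0.05 CPM. Scripts were tested on simulated data.

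Values per library were given for genes called in either fit, the most abundant member of each family per length, and genes past 2-fold in the same direction in both fits with non-overlapping groups, 29 in all. Others named with values were chosen for family coverage or after their values were seen. DESeq2 1.42.0, its size factors, other filters, the replicate block and leaving out libraries were alternatives. Promoters are RefSeq's.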

Additional observations from a re-analysis of the deposited data

How the results depend on the processing

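The number of guidance genes called depended on the processing, as did the number over all genes. Of all genes, 161 were called as analysed, 603 with DESeq2 size factors, 84 with a filter of at least 5 CPM in 2 libraries, 4231 with DESeq2's Wald test, 2317 with GC correction, and between 125 and 10289 with 1 library left out. For guidance genes, 1 higher and 0 lower became 2 and 5 with DESeq2 size factors, 0 higher with the 5 CPM filter (Slit2 at an adjusted p of 0.056), 9 and 16 with the Wald test, 11 and 8 with GC correction, and 0 to 15 higher and 0 to 33 lower with 1 library left out. A quasi-likelihood fit in edgeR's older form, chosen after seeing the data, called 86 genes and 0 guidance genes (Slit2 at 0.0596). Of the other axon guidance genes, 0 were called as analysed, 1 with DESeq2 size factors, 25 with the Wald test, 22 with GC correction and 0 to 55 with 1 library left out. The median of guidance genes moved from −0.82 to 0.29 with GC correction. With GC correction, leaving out 1 library gave 29 to 6663 genes, 0 to 20 guidance genes higher, 0 to 13 lower, 0 to 37 other guidance genes and medians of 0.053 to 0.31. When 1 library was left out, the lone library was assumed to vary like the other group, and the cause of the changes was not tested.

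The replicate numbers are shared by the groups, and same-numbered libraries correlated weakly in their deviations (r = 0.1825 over 14256 genes). With 2 libraries a group, this correlation cannot settle whether they are pairs. The main fit treated the number as a label only. A fit with the replicate number as a block called 4401 genes, 11 guidance genes higher and 24 lower, and 24 other guidance genes. The block with GC correction called 2635 genes, 11 guidance genes higher and 9 lower, 22 other guidance genes, and gave a median of 0.24. Of the 19 guidance genes called after correction, 18 were also called with the block, and without GC correction the block also called Robo3 (−3.23).

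Directions turned for genes near 0 or dependent on GC content. With 1 library left out, Efnb1 ranged from −0.38 to 0.86 and Efnb2 from −0.10 to 0.45 (corrected, −0.087 to 0.61). Robo1 was −0.0059 with no count filter, −0.0053 with GC correction, −0.0095 with the block and GC correction, and ranged from −0.070 to 0.16 (corrected, −0.13 to 0.12) with 1 library left out. Sema4g turned to 1.43 and Sema6c to 1.56 with GC correction, to 1.41 and 1.57 with the block as well, and ranged from −0.32 to 0.19 and from −1.35 to 0.072 with 1 library left out. Unc5b, corrected, ranged from −0.094 to 0.024. At a depth of 11086233 counts in ATRA replicate 2, genes such as Efna3, Sema6b and Robo3 rest on 0 or 1 count there.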
